A study of Mus musculus with 6 samples.

Results

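Conjugation genes of the glutathione transferase, UDP-glucuronosyltransferase and sulfotransferase families were examined in colorectal tissue of colitis mice receiving berberine (BBR, a plant alkaloid) or sulfasalazine (SASP, a standard colitis drug that gut bacteria split). Members were chosen by a rule on gene symbols, with earlier results of these data known. The rule took symbols that start with Gst and a class letter, Mgst, Ugt or Sult, each followed by a digit. It selected 54 of the 18268 genes of the expression table. These comprised 21 soluble glutathione transferase genes (GST), 3 microsomal glutathione transferase genes (MGST), 19 UDP-glucuronosyltransferase genes (UGT) and 11 sulfotransferase genes (SULT).

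All 6 mice were male adult C57BL/6 mice that drank dextran sulfate sodium (DSS), which damages the colonic epithelium, for 7 days. BBR at 100 mg/kg was given by gavage to 3 of them for 6 days, and SASP at 200 mg/kg to the other 3 over the same time. Healthy mice and colitis mice without a drug were not analysed here, so every difference is between the drugs. The study names rectal samples for its BBR sequencing and colon samples for SASP, while the labels give colorectal tissue for both, so the drug and the bowel segment cannot be told apart. The study describes its SASP sequencing separately from that of BBR, and the labels do not say whether groups were housed or processed apart. A difference in handling, if any, cannot be told apart from the drug, and p-values measure only the spread between these samples.

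Conjugating enzymes attach a large polar group to drugs, bile pigments, steroids, hormones and reactive lipid products, which makes them easier to export. Glutathione transferases add the tripeptide glutathione to electrophiles. UDP-glucuronosyltransferases of the endoplasmic reticulum add glucuronic acid taken from UDP-glucuronic acid, and cytosolic sulfotransferases add a sulfo group taken from the activated sulfate donor PAPS. In the gut these enzymes are made mainly by the epithelium, where they act on food components, drugs and bacterial products.

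Levels were given as FPKM, a read count divided by transcript length and library size, so that levels of genes of different length can be compared. Genes at 1 FPKM or more in at least 3 mice were tested with limma on log2(FPKM + 1), over all 12072 genes that passed, and a gene was called different at a Benjamini-Hochberg adjusted p under 0.05. Log2 fold changes below are BBR minus SASP on that scale, which understates differences of low genes. The estimated depth was 16400000 to 18200000 reads per mouse. Over the tested genes, BBR mice 1 and 2 correlated at 0.987, BBR mouse 3 with these at 0.949 and 0.953, and SASP mice among themselves at 0.982 to 0.989 (Pearson, log2 scale). With SASP mice, BBR mouse 1 correlated at 0.932 to 0.953, BBR mouse 2 at 0.916 to 0.941 and BBR mouse 3 at 0.92 to 0.953. BBR mouse 3 thus stood apart from its group, and it was as near to SASP mouse 2 (0.953) as to BBR mouse 1. Results are given with and without BBR mouse 3. Epithelial markers were abundant in every mouse, with Epcam at 833 to 1101 FPKM, and the liver markers Alb and Apoa1 stayed at or below 0.35 FPKM. Of 7 liver or kidney genes measured, 2 were tested and 0 were called in limma, with 0 at an unadjusted p under 0.05. Ttr of this list was at 25.4, 22.9 and 6.45 FPKM in BBR mice 1 to 3 and at 5.79, 8.58 and 7.03 FPKM in SASP mice 1 to 3, and was called without BBR mouse 3 (limma adjusted p = 0.00223).

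Of the 54 genes, 34 passed the filter, 18 were below 1 FPKM in every mouse, and 2 reached 1 FPKM in too few mice to be tested. Among the 34, 5 differed between the drugs and all 5 were higher in BBR mice, namely Sult1c2, Sult1d1, Ugt1a7c, Gstt1 and Gstt3. This was 14.7% of the members tested, beside 8.86% of all genes called in either direction, 3.82% called as higher and 5.04% called as lower. None was called lower in limma, although 3 were lower at an unadjusted p under 0.05. In either direction 12 of the 34 had an unadjusted p under 0.05, beside 31.8% of all genes. The members' median log2 fold change was 0.30, beside 0.097 for all tested genes, with 25 of 34 above 0, beside 60.8% of all genes. In 13 members, or 38.2%, the values of both groups did not overlap, beside 37.9% of all genes tested, a share near the background.

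**Figure D1:**
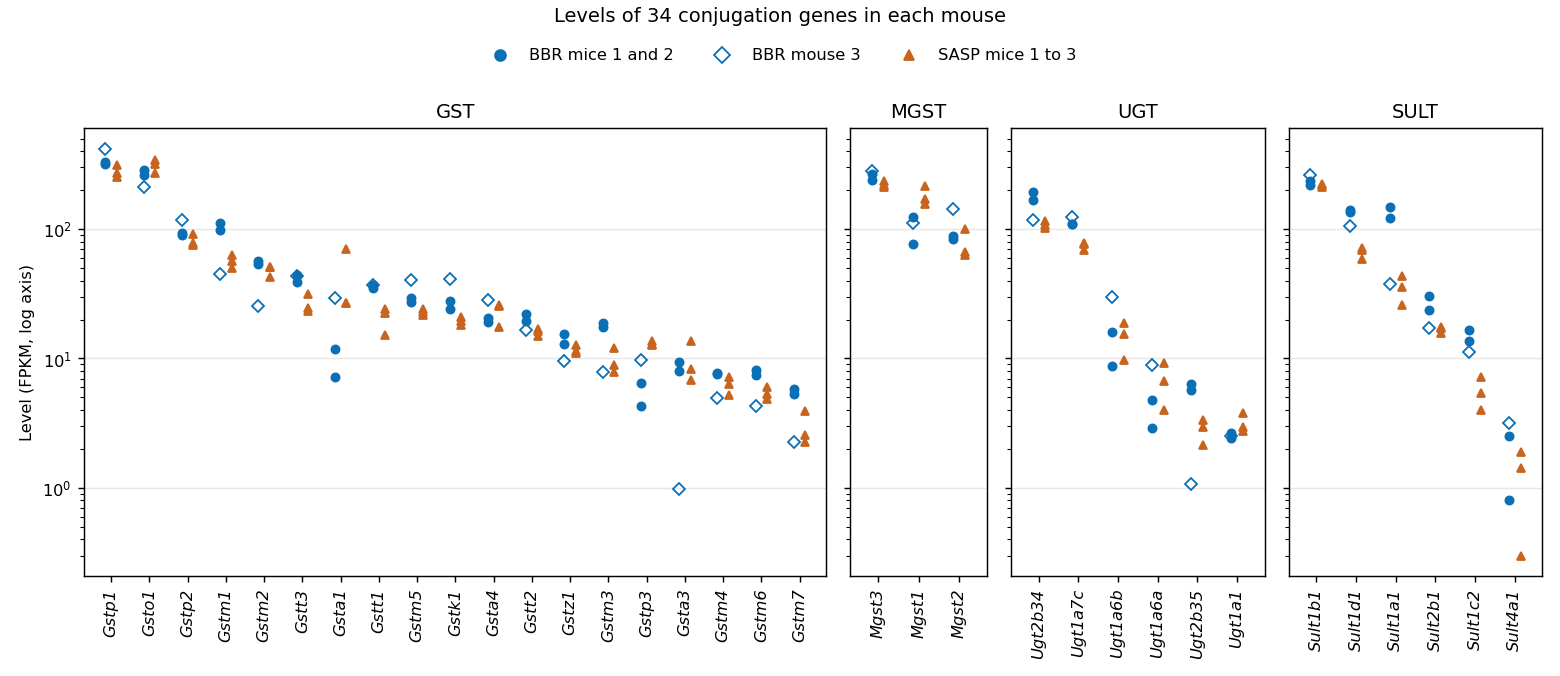
Levels of the 34 tested genes in each mouse, in FPKM on a log axis, by family and ordered by mean. Filled circles are BBR mice 1 and 2, open diamonds BBR mouse 3 and triangles SASP mice; for Sult1c2, Sult1d1, Ugt1a7c, Gstt1 and Gstt3 every BBR value lies above every SASP value, and BBR mouse 3 lies far below the other BBR mice for Gsta3 and Ugt2b35.

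The control region of 1 called gene per family is shown because these genes differed between the drugs. Of the 54 members, 49 had an entry in RefSeq's promoter windows, which hold 250 bases before and 50 after the transcription start (build GRCm38.p6). Sequences are printed 5′ to 3′ along the gene, and capitals mark matches, on either strand, to the core of the antioxidant response element TGACNNNGC, the core of the xenobiotic response element GCGTG and the HNF1 motif GTTAAT.
Sult1d1, chr5:87568957-87569256 (minus strand): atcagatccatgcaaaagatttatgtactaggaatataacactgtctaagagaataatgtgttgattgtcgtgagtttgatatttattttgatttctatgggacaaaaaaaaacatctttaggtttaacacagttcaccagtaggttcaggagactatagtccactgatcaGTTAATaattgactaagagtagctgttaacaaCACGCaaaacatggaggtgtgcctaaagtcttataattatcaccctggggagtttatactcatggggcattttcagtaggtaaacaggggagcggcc
Gstt1, chr10:75797682-75797981 (minus strand): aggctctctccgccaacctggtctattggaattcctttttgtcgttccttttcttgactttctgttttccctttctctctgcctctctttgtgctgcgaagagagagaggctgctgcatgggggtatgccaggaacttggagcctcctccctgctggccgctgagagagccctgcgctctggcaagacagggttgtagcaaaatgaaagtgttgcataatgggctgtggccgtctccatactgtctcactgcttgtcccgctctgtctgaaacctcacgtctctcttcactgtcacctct
Ugt1a7c, chr1:88094751-88095050 (plus strand): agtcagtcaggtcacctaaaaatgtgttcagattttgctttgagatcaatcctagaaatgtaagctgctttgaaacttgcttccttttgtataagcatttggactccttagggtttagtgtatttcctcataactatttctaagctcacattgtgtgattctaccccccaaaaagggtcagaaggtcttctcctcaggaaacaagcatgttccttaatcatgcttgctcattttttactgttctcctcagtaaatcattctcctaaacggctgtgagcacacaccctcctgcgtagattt
The Sult1d1 window held 1 match to GTTAAT and 1 match to GCGTG on the opposite strand, while the Gstt1 and Ugt1a7c windows held no match to the 3 motifs. Gstt3 and Sult1c2 windows also held none. Over the 30 tested members with a window, 4 held the antioxidant core (13.3%, beside 14% of 27025 genes), 9 the xenobiotic core (30%, beside 35.2%) and 5 the HNF1 motif (16.7%, beside 8.24%). The antioxidant core was found in Gsta3, Gstm5, Gstm7 and Mgst1. None of these was a called gene.

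Sulfotransferase genes had the largest median fold change of the 4 families and both of the largest fold changes among called members. Of 11 genes, 6 were tested, and all 6 had fold changes above 0, beside 60.8% of all genes, with a median of 0.72. Of these, 2 were called (33.3%), both higher in BBR mice, beside 3.82% of all genes called higher and 8.86% in either direction. Sult1c2 (Gene ID 69083), a cytosolic sulfotransferase of phenolic compounds, was at 16.6, 13.6 and 11.1 FPKM in BBR mice 1 to 3 and at 4.03, 7.16 and 5.39 FPKM under SASP 1 to 3. Its lowest BBR value lay above its highest SASP value. Means were 13.8 ± 2.72 and 5.53 ± 1.57 FPKM (SD, n = 3 each), 2.49 times as high in BBR, with a difference of 1.19 ± 0.22 on the log2 scale (SE, adjusted p = 0.0256 by limma).

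Sult1d1 (53315), which sulfates catecholamines and related phenols in rodents, was at 140, 135 and 106 FPKM under BBR and at 71.1, 59.1 and 68.6 FPKM under SASP. The groups did not overlap, and BBR mouse 3 was the lowest of its group. Its means were 127 ± 18.2 and 66.2 ± 6.29 FPKM (SD, n = 3 each), a difference of 0.92 ± 0.14 on the log2 scale (SE, adjusted p = 0.0171 by limma), the smallest adjusted p of the 34 members. Sult1b1 (56362), its chromosomal neighbour and the most abundant sulfotransferase gene here, showed no such difference. It was at 236, 220 and 262 FPKM under BBR and 221, 213 and 221 FPKM under SASP, and the groups overlapped. The log2 fold change was 0.13 with a 95% interval of -0.13 to 0.38 (limma adjusted p = 0.440).

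Sult1a1 (20887), the main phenol sulfotransferase, had the largest fold change of the family but a wide spread. In BBR mice 1 and 2 it was at 147 and 123 FPKM, and in BBR mouse 3 at 37.6 FPKM, inside the SASP range of 26.1 to 43.6 FPKM. Its log2 fold change was 1.33 with a 95% interval of 0.17 to 2.50 and was not called (limma adjusted p = 0.120). Without BBR mouse 3 it was 1.94 and was called (adjusted p = 0.00318). Sult2b1, which sulfates cholesterol and other hydroxysteroids, had the same order of BBR mice, with 30.2 and 23.9 FPKM in BBR mice 1 and 2, 17.3 FPKM in BBR mouse 3 and 15.8 to 17.5 FPKM under SASP (log2 fold change 0.45, limma adjusted p = 0.164). Sult4a1, a brain-enriched member with no well-defined substrate, was low, at 0.81 to 3.19 FPKM under BBR and 0.30 to 1.89 FPKM under SASP, with overlapping groups.

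The summed level of the SULT family was 571, 519 and 437 FPKM under BBR and 340, 341 and 350 FPKM under SASP. Sult1b1, Sult1d1 and Sult1a1 made up 92.4% of it. SASP mice lay within a narrow band, and each BBR mouse lay above it.

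**Figure D2:**
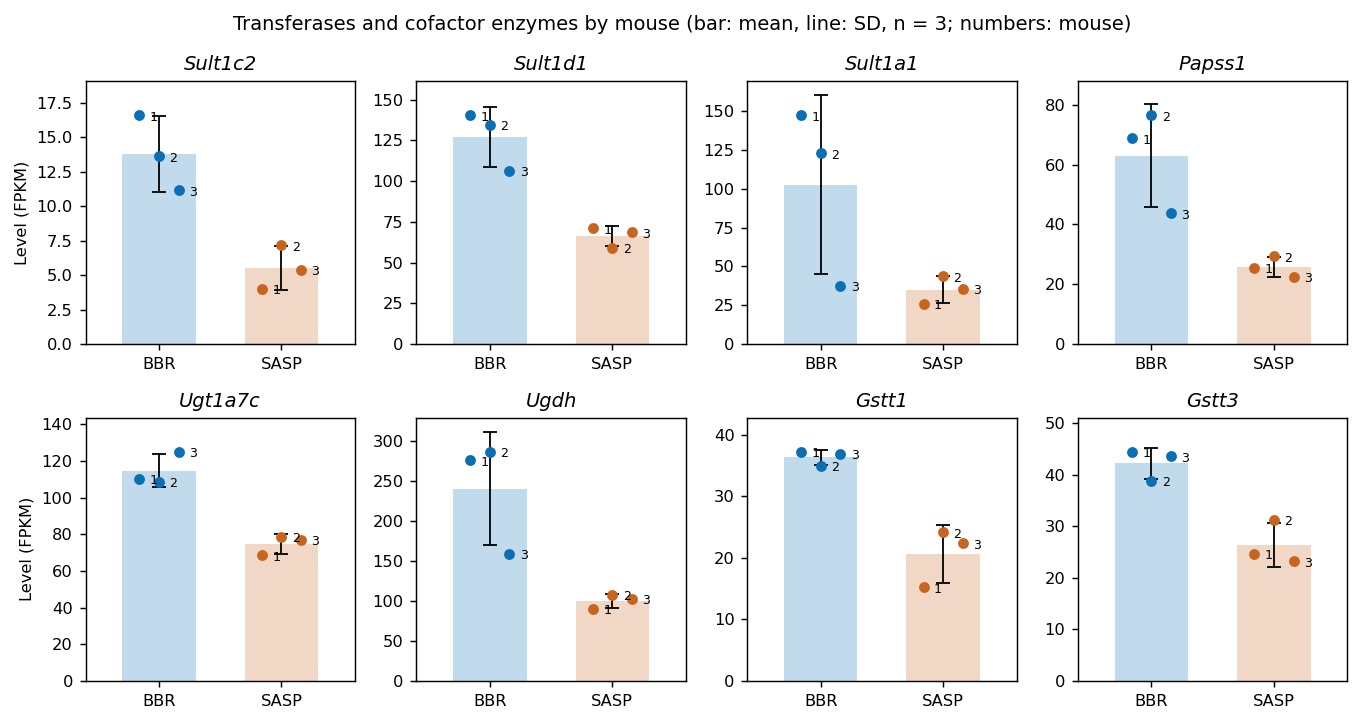
Levels in FPKM of the 5 called transferases, of Sult1a1, and of Papss1 and Ugdh, which make the sulfate and glucuronic acid donors. Bars are means, lines SD (n = 3) and points single mice with their numbers; BBR and SASP points separate in every panel except that of Sult1a1, where BBR mouse 3 (37.6 FPKM) falls among SASP mice.

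Glucuronidation genes were split between a pair of abundant genes and many near zero. Ugt2b34 and Ugt1a7c made up 88.6% of the summed UGT level, and 13 of the 19 genes were below 1 FPKM in every mouse, at most 0.19 FPKM. Ugt1a7c (394432), an isoform for phenols and other planar compounds, was at 110, 108 and 125 FPKM under BBR and 68.4, 78.6 and 77.1 FPKM under SASP. Every BBR value exceeded every SASP value, at means of 115 ± 8.94 and 74.7 ± 5.48 FPKM (SD, n = 3 each), with a difference of 0.61 ± 0.11 on the log2 scale (SE, adjusted p = 0.0242 by limma).

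Ugt2b34 (100727), a member of the steroid and drug conjugating branch, was at 192, 169 and 117 FPKM under BBR and 103, 115 and 108 FPKM under SASP. The groups did not overlap, but BBR mouse 3 and SASP mouse 2 were close. The log2 fold change was 0.52 with a 95% interval of 0.077 to 0.96 (limma adjusted p = 0.113), and it was called without BBR mouse 3 (0.72, adjusted p = 0.00484). Ugt2b35 was at 6.40 and 5.72 FPKM in BBR mice 1 and 2, at 1.08 FPKM in BBR mouse 3 and at 2.13 to 3.36 FPKM under SASP. BBR mouse 3 thus lay below the SASP mice and the other BBR mice above them. The fold change of 0.31 was called without that mouse, at 0.90 (adjusted p = 0.0129).

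The remaining tested UGT1 genes were not called, with Ugt1a1 and Ugt1a6a below 0 and Ugt1a6b above. Ugt1a1, the bilirubin isoform, was at 2.44 to 2.65 FPKM under BBR and 2.76 to 3.82 FPKM under SASP, a log2 fold change of -0.23 (limma adjusted p = 0.296). Ugt1a6a (2.89 to 8.86 and 4.02 to 9.24 FPKM) and Ugt1a6b (8.72 to 29.9 and 9.77 to 18.7 FPKM), isoforms for simple phenols, had overlapping groups, with fold changes of -0.28 and 0.18, and both were highest among BBR mice in mouse 3 (8.86 and 29.9 FPKM). Genes of the UGT1 locus have separate first exons and share the later ones, and RSEM divides reads from the shared part by estimate. The summed level of the 7 UGT1 genes in the table was 134, 123 and 166 FPKM under BBR and 85.1, 110 and 102 FPKM under SASP, with no overlap.

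Soluble glutathione transferases were the largest family, and their differences went both ways. Of 19 tested genes 13 had fold changes above 0 and 6 below, with a median of 0.24, and the 2 called genes both belonged to the theta class. Gstt1 (14871) was at 37.2, 35.0 and 37.0 FPKM under BBR and 15.2, 24.2 and 22.4 FPKM under SASP. Gstt3 (103140), next to it on the chromosome, was at 44.4, 38.9 and 43.6 FPKM under BBR and 24.7, 31.2 and 23.2 FPKM under SASP. For both genes all 3 BBR mice were close together and above all SASP mice. Log2 fold changes were 0.82 for Gstt1 (SE 0.17, limma adjusted p = 0.0373) and 0.67 for Gstt3 (SE 0.13, adjusted p = 0.0336). Gstt2, the remaining tested theta gene, was at 21.9, 19.6 and 16.5 FPKM under BBR and 16.9 FPKM or less under SASP, with overlapping groups and a fold change of 0.24 (adjusted p = 0.233).

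Mu class genes, which conjugate epoxides and other aromatic electrophiles, showed a split within the BBR group. Gstm1 (14862) was at 99.2 and 112 FPKM in BBR mice 1 and 2, at 45.2 FPKM in BBR mouse 3 and at 49.9 to 63.3 FPKM under SASP. In Gstm2, Gstm3, Gstm4, Gstm6 and Gstm7 BBR mouse 3 was likewise the lowest of its group, at 0.409 to 0.656 times the mean of BBR mice 1 and 2 over these 5 genes and Gstm1 at 0.428 times. Gstm5, at one end of the same gene cluster, went the other way, at 29.1 and 27.2 FPKM in BBR mice 1 and 2, 40.5 FPKM in BBR mouse 3 and 21.8 to 24.2 FPKM under SASP. Under BBR and SASP, levels were 25.6 to 56.9 and 42.3 to 51.3 FPKM for Gstm2, 7.84 to 18.7 and 7.83 to 12.1 FPKM for Gstm3, and 4.99 to 7.67 and 5.18 to 7.16 FPKM for Gstm4. For Gstm6 they were 4.26 to 8.14 and 4.84 to 5.97 FPKM, and for Gstm7 2.26 to 5.77 and 2.28 to 3.91 FPKM, so all 5 overlapped. None of the 7 mu genes was called with all mice (limma adjusted p = 0.105 to 0.769). Without BBR mouse 3, Gstm1, Gstm3, Gstm5, Gstm6 and Gstm7 were called, all higher in BBR. In that fit 33.6% of all genes were called, 22.4% as higher.

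Alpha class genes, which handle lipid peroxidation products, had fold changes below 0 but no call. Gsta1 (14857) was at 7.17 and 11.9 FPKM in BBR mice 1 and 2, at 29.3 FPKM in BBR mouse 3 and at 26.8, 70.2 and 26.9 FPKM under SASP. Its log2 fold change of -1.37 had a 95% interval of -2.67 to -0.077 (limma adjusted p = 0.140), and without BBR mouse 3 it was -1.89 and was called (adjusted p = 0.0243). Gsta3 was at 9.36 and 7.97 FPKM in BBR mice 1 and 2, at 0.98 FPKM in BBR mouse 3 and at 6.83 to 13.6 FPKM under SASP. Its fold change of -0.85 was -0.084 without BBR mouse 3. Gsta4, which acts on hydroxyalkenals, was at 19.2 to 28.5 and 17.5 to 25.9 FPKM, with a fold change of -0.0084 and a 95% interval of -0.49 to 0.47.

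Gstp1 of the pi class and Gsto1 of the omega class were the most abundant genes of the soluble enzymes. Gstp1 (14870) was at 320, 332 and 418 FPKM under BBR and 253, 313 and 271 FPKM under SASP. All BBR values lay above the SASP values, but the nearest mice were at 320 and 313 FPKM, and the gene was not called (0.35 ± 0.15 SE on the log2 scale, adjusted p = 0.160 by limma). Gsto1 (14873), a thiol transferase that also reduces dehydroascorbate, was at 260, 287 and 212 FPKM under BBR and 319, 343 and 269 FPKM under SASP, with overlapping groups and a fold change of -0.30 (SE 0.16, adjusted p = 0.235). Gstp2 followed Gstp1 at 90.7 to 117 and 75.9 to 91.8 FPKM (0.29, adjusted p = 0.194). Gstp3 differed in sign from both. It was at 6.46, 4.28 and 9.68 FPKM under BBR and 12.9, 13.7 and 12.8 FPKM under SASP, with every BBR mouse below every SASP mouse, a fold change of -0.91 (SE 0.24) and an adjusted p of 0.0614.

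Gstk1, a mitochondrial and peroxisomal enzyme of a separate fold, was at 27.8, 24.1 and 41.3 FPKM under BBR and 18.2 to 20.8 FPKM under SASP, without overlap (log2 fold change 0.62, limma adjusted p = 0.0853). Gstz1, an enzyme of tyrosine breakdown, was at 9.62 to 15.4 and 11.1 to 12.8 FPKM, with overlapping groups (0.070, adjusted p = 0.799).

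Microsomal transferases, membrane proteins of the endoplasmic reticulum and mitochondria, numbered 3 and had no call. Of these, 1 gene had an unadjusted p under 0.05 in limma, beside 31.8% of all genes. Mgst1 (56615), which removes lipid hydroperoxides, was at 124, 76.5 and 110 FPKM under BBR and 215, 171 and 157 FPKM under SASP. Every BBR value lay below every SASP value, with a log2 fold change of -0.82 (SE 0.21) that came close to the threshold (limma adjusted p = 0.0547). Mgst3 (66447) was at 265, 240 and 283 FPKM under BBR and 218, 235 and 212 FPKM under SASP, also without overlap but in the other direction (0.24, SE 0.11, adjusted p = 0.188). Mgst2, which can also form leukotriene C, overlapped at 83.9 to 143 and 63.2 to 101 FPKM (0.44, adjusted p = 0.278).

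**Figure D3:**
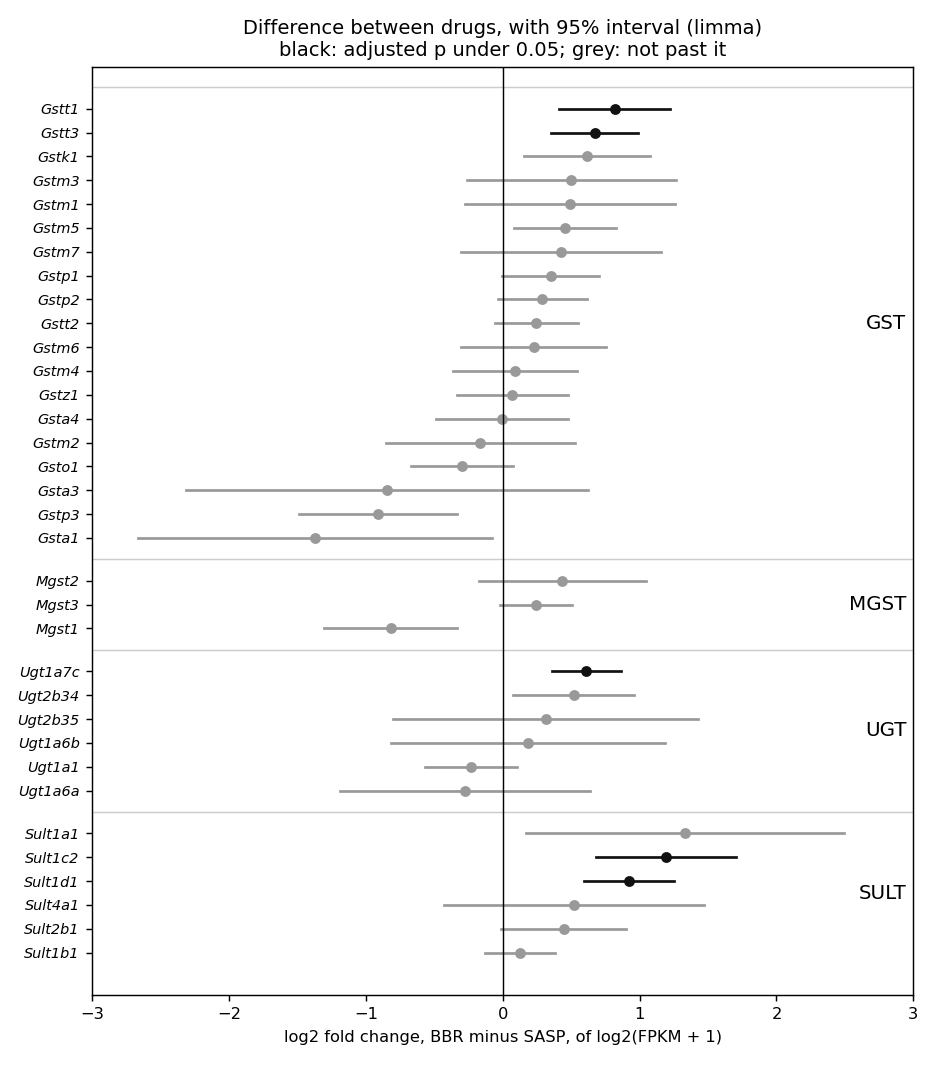
Log2 fold change of each tested gene, BBR minus SASP of log2(FPKM + 1), with its 95% interval from limma, by family. Black marks the 5 genes past an adjusted p of 0.05, all to the right of 0; Gsta1, Gstp3 and Mgst1 lie to the left with intervals that exclude 0 before adjustment.

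The 18 genes below 1 FPKM in every mouse were Gsta2, Sult1c1, Sult5a1, Sult6b1, Sult6b2, Ugt1a2, Ugt1a5, Ugt1a10, Ugt2a1, Ugt2a2, Ugt2b1, Ugt2b5, Ugt2b36, Ugt2b37, Ugt2b38, Ugt3a1, Ugt3a2 and Ugt8a. By the estimated depth, 17 of them rested on at most 10 reads in every mouse. Nearest below 1 FPKM was Sult5a1, with a highest value of 0.52 FPKM in BBR mouse 2, and nearest above was Gsto2, with 0.89, 1.13 and 1.03 FPKM under BBR and 0.40, 0.24 and 0.85 FPKM under SASP. Sult1e1, the estrogen sulfotransferase, was at 1.51 FPKM in BBR mouse 2, at 0.46 FPKM in SASP mouse 3 and at most 0.04 FPKM in the other mice. The Gsto2 groups did not overlap, on about 20 to 25 reads in BBR and 5.9 to 19 in SASP mice. Neither gene passed the filter. In the fit without a filter neither these 2 nor the 18 lower genes were called. In that fit 13 of the 54 members had an unadjusted p under 0.05, beside 4683 of 18260 genes.

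The shared sequence of near-identical genes limits how well some levels can be assigned. For the longest GENCODE M21 transcript of each member, every window of 50 bases, the read length stated by the study, was searched for in the transcripts of all other genes. Among the 34 tested genes, 24 shared under 10% of windows, and 6 shared over 50%, namely Gsta1 (89.7%), Ugt1a6b (80.7%), Gstp2 (72.6%), Ugt1a7c (69.3%), Gstp1 (62.3%) and Ugt1a1 (58.2%). Gsta1 shared most with the predicted gene Gm3776, and Gstp1 and Gstp2 with each other. Of the 5 called genes, Sult1d1, Sult1c2, Gstt1 and Gstt3 were among the 24, with 0%, 0.723%, 0% and 3.20% shared, so the Ugt1a7c level is the uncertain one.

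**Figure D4:**
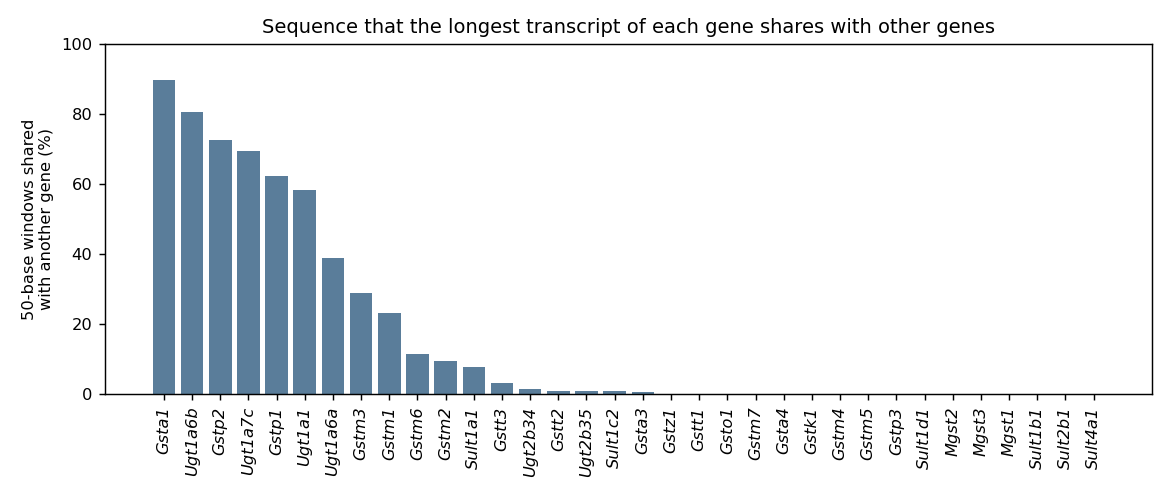
Share of 50-base windows of each tested gene's longest transcript that also occur in transcripts of another gene, in percent. Bars run from 89.7% for Gsta1 down to 0%; Ugt1a7c, at 69.3%, is the called gene with the largest share.

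Each mouse lay farther from the other mice of its group in these genes than in all tested genes, and BBR mouse 3 lay farthest. The median absolute distance on the log2 scale over the 34 members was 0.57 for BBR mouse 3, 0.24 and 0.32 for BBR mice 1 and 2 and 0.16 to 0.23 for SASP mice, beside 0.30, 0.17, 0.21 and 0.10 to 0.15 over all tested genes. It lay above all SASP mice in 16 members and below all of them in 12, whereas BBR mice 1 and 2 lay above in 23 and 22 and below in 5 and 6. Without it 19 members were called, 16 higher and 3 lower in BBR (Gsta1, Gstp3 and Mgst1), beside 33.6% of all genes, 22.4% higher and 11.2% lower, and the 5 genes called with all mice were among them. The 14 further genes were Gsta1, Gstk1, Gstm1, Gstm3, Gstm5, Gstm6, Gstm7, Gstp3, Gstt2, Mgst1, Sult1a1, Sult2b1, Ugt2b34 and Ugt2b35.

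**Figure D5:**
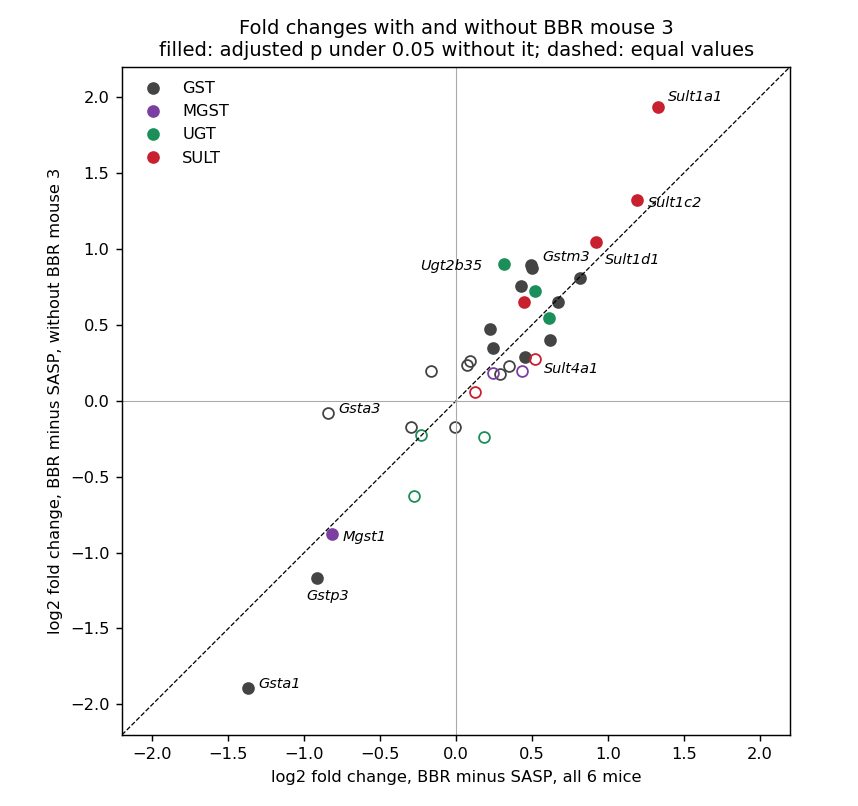
Log2 fold change of each tested gene with all 6 mice (horizontal) against that without BBR mouse 3 (vertical), both BBR minus SASP of log2(FPKM + 1). Filled points are the 19 genes called without that mouse; Sult1a1 moves from 1.33 to 1.94 and Gsta3 from -0.85 to -0.084.

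Among settings with all 6 mice, 4 members were called with no filter (all but Gstt1, beside 3.33% of all genes). The same 5 were called with a mean of at least 5 FPKM (9.54% of all genes), a pseudocount of 0.1 (8.06%), quantile normalization (14.4%), median-ratio scaling (14.1%) and no variance trend (8.13%). Array weights gave 24 calls, 21 higher and 3 lower, beside 59% of all genes, 38.4% higher and 20.6% lower.

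In most fits that left out a mouse other than BBR mouse 3, the 5 calls were lost. Over all genes fewer were then called than the 8.86% with all mice. All 5 were lost without BBR mouse 1, BBR mouse 2, SASP mouse 1 or SASP mouse 3, where adjusted p-values ranged up to 0.0778 for Sult1d1, 0.103 for Sult1c2, 0.106 for Gstt1, 0.110 for Ugt1a7c and 0.138 for Gstt3. In those fits 1.08%, 2.97%, 1.01% and 0.717% of all genes were called. At an unadjusted p under 0.05 were 9 to 11 members, of 34 or 35 tested. Over all genes these counts were 3315 of 12370, 2941 of 12206, 2482 of 12430 and 2745 of 12420. Without SASP mouse 2, Ugt1a7c was lost (limma adjusted p = 0.0517), beside 4.37% of all genes called. Fold changes moved little, from 0.84 to 1.05 for Sult1d1, 1.02 to 1.37 for Sult1c2, 0.62 to 0.94 for Gstt1, 0.59 to 0.79 for Gstt3 and 0.55 to 0.65 for Ugt1a7c over the 6 fits.

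Other genes of the pathway were read from lists set by function, with earlier results of these data known. In the list for supply of UDP-glucuronic acid and PAPS, 13 of 15 genes were tested. This list also held Gusb, Sts and Arsa, which encode hydrolases. Of the 13, 2 were called higher and 1 lower, with a median of 0.23. Over all tested genes 8.86% were called, 3.82% higher and 5.04% lower, with a median of 0.097. Without BBR mouse 3, 8 of the 13 were called, beside 33.6% of all genes. Papss1 (23971), a synthase of PAPS, was at 68.8, 76.5 and 43.7 FPKM under BBR and 25.5, 29.3 and 22.5 FPKM under SASP (1.23 ± 0.22 SE on the log2 scale, adjusted p = 0.0246 by limma). Ugdh (22235), which oxidises UDP-glucose to UDP-glucuronic acid, was at 276, 286 and 159 FPKM under BBR and 89.9, 107 and 103 FPKM under SASP (1.21, SE 0.23, adjusted p = 0.0289). In both genes all BBR mice lay above all SASP mice, and BBR mouse 3 was the lowest of its group. Slc35b1, a nucleotide transporter of the endoplasmic reticulum, was lower in BBR mice (-0.75, adjusted p = 0.0402).

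Of 16 genes of glutathione synthesis and recycling, 14 were tested and 2 were called, both lower in BBR mice, with a median of 0.12. Over all tested genes 8.86% were called, 5.04% as lower, with a median of 0.097. Without BBR mouse 3, 6 of the 14 were called, beside 33.6% of all genes. Gsr, the reductase that regenerates glutathione, was at 33.5, 37.7 and 33.3 FPKM under BBR and 66.1, 69.6 and 60.9 FPKM under SASP (-0.89 ± 0.10 SE on the log2 scale, adjusted p = 0.00826 by limma). Gsr was called in all 6 fits that left out a mouse. Of the other called genes of the pathway lists, Ces2e was called in 3 of these fits, Papss1, Abcb1a and Cdx2 in 2, and Ugdh, Slc35b1, Ggct and Akr1c13 in 1. With the smooth muscle covariate none of these 9 genes was called (limma adjusted p = 0.108 for Ces2e to 0.312 for Cdx2, Gsr at 0.135). That covariate was itself higher in every BBR mouse than in every SASP mouse, so this loss cannot tell muscle content from the drug. Ggct, which breaks down gamma-glutamyl compounds, was low, at 1.13, 2.28 and 1.86 FPKM under BBR and 3.86, 3.95 and 5.17 FPKM under SASP. Its log2 fold change was -0.96 (limma adjusted p = 0.0354). Oplah, which acts further along the same cycle, was at 0.70 (adjusted p = 0.104) and was called without BBR mouse 3 (limma adjusted p = 0.00385).

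Among 26 tested genes for other conjugating and detoxifying enzymes, Ces2e, a carboxylesterase, was lower (-1.34, limma adjusted p = 0.00981) and Akr1c13, an aldo-keto reductase, higher in BBR mice (0.64, adjusted p = 0.0247), with a median of 0.15. Cbr1, a carbonyl reductase, was at 0.67 (limma adjusted p = 0.0729, and 0.0427 without BBR mouse 3). The 2 called of 26 stood beside 8.86% of all genes, and 7 were called without BBR mouse 3, beside 33.6%. In a list of conjugate and drug exporters, 6 genes were tested and 1 was called, beside 8.86% of all genes. This was Abcb1a, which encodes the drug exporter P-glycoprotein. It was at 229, 141 and 223 FPKM under BBR and 32.9, 93.7 and 50.9 FPKM under SASP (1.82, limma adjusted p = 0.0361). Abcc1 and Abcc5 were at 0.42 and 0.36 and were not called with or without BBR mouse 3. Of 16 transcription factors known to act on detoxification genes, 1 was called, beside 8.86% of all genes. This was the intestinal factor Cdx2, at 17.9 ± 5.58 FPKM under BBR and 5.85 ± 2.88 FPKM under SASP (SD, n = 3 each, limma adjusted p = 0.0422). Nfe2l2, which encodes NRF2, was at 0.58 (adjusted p = 0.0746) and Ppard at 0.32 (adjusted p = 0.137). Without BBR mouse 3, 9 of the 16 were called, beside 33.6% of all genes. Nfe2l2 was among them (limma adjusted p = 0.00417) and Ppard was not (0.117).

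Markers of the cell types in the tissue were measured beside these genes. Over all tested genes 8.86% were called in limma, 31.8% had an unadjusted p under 0.05 and 60.8% had a fold change above 0. The summed level of 14 epithelial genes was 9806 to 11081 FPKM under BBR and 10132 to 11468 FPKM under SASP, with 2 genes called higher (Krt18 and Phgr1) and 1 lower (Vil1). Of 13 tested absorptive colonocyte genes, 2 were called higher (Slc20a1 and Pck1) and 1 lower (Slc51b), with sums of 6135 to 9100 and 4953 to 6610 FPKM. The 10 goblet cell genes summed to 12425 to 24540 FPKM in BBR, highest in mouse 3, and 10673 to 15744 FPKM under SASP, with 0 called in limma and 1 at an unadjusted p under 0.05. Smooth muscle genes summed to 3261, 3460 and 7611 FPKM under BBR and 880, 2663 and 1996 FPKM under SASP, above in all 16 genes by fold change (median 1.17), with 0 called and 12 at an unadjusted p under 0.05. The 15 leukocyte genes summed to 321 to 649 FPKM under BBR and 534 to 674 FPKM under SASP, with fold changes below 0 in 10 of 12 tested genes (median -0.58), 6 at an unadjusted p under 0.05 and 1, S100a8, called lower. None of the markers was at 0 in all mice. Without BBR mouse 3, 7 epithelial, 7 absorptive, 2 goblet, 0 smooth muscle and 3 leukocyte genes were called, beside 33.6% of all genes.

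In a fit with the mean level of the epithelial genes as a covariate, the same 5 members were called, beside 9.39% of all genes. That mean overlapped between the drugs, at 8.99 to 9.19 under BBR and 9.04 to 9.24 under SASP (log2 scale). This fit could therefore take away little of a drug difference. The mean level of the smooth muscle genes was then used in place of the epithelial mean. On the log2 scale it was 5.95, 6.22 and 6.96 under BBR and 4.43, 5.79 and 5.47 under SASP. Every BBR mouse lay above every SASP mouse, so with 6 mice this fit cannot separate the drug from muscle content. In this fit 0 members were called, beside 0.149% of all genes. At an unadjusted p under 0.05 were 10 of the 34 members, beside 1966 of all 12072 genes. Log2 fold changes were then 1.04 for Sult1c2, 0.54 for Gstt3, 0.46 for Gstt1 and 0.42 for Ugt1a7c, each smaller than without the covariate, while that of Sult1d1 was larger than its 0.92. Limma adjusted p-values of the 5 genes ranged from 0.0699 for Sult1d1 to 0.321 for Gstt1. The part of tissue makeup in these differences was therefore not tested. In bulk tissue fewer cells of a type and less RNA per cell cannot be told apart.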

How the data were processed

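Transcript levels were taken from 1 table of the whole series with a column for each of the 6 mice. The authors calculated FPKM per gene with RSEM 1.2.12 after filtering reads with SOAPnuke 1.5.2 and aligning them with Bowtie2 2.2.5, and deposited the FPKM values rounded to 2 decimals. The submitters' processing notes name the build mm9, while the annotation is not given in the sources used here, so no positions of the measured genes are printed except those of RefSeq promoter windows (GRCm38.p6). The methods describe rRNA depletion and single-end reads of 50 bases, and the labels an Illumina kit.

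Groups came from the treatment label. Replicate numbers follow accession order and pair no mice. Levels were tested as log2(FPKM + 1) in limma 3.58.1 under R 4.3.3, using a trended eBayes prior and two-sided p-values adjusted over all 12072 genes. The filter asked for 1 FPKM in as many mice as the smaller group holds (3 of 6, or 2 of 5 when a mouse was left out). With 3 mice in each group the smallest two-sided p of an exact permutation test is 0.1, so this test was not used. Family and list values are counts and medians without a test. The members and lists were chosen with earlier results of these data known.

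Full values are given for called genes and for the 2 most abundant genes of each family, ranges for the other tested genes, and up to 3 genes with the smallest p-values for each pathway list. Values of further genes were chosen after they were seen. Depth was estimated from genes above 0 in 1 mouse only with short transcripts, assuming that such a value is 1 read, and rests on 31 to 56 genes per mouse. Tried alternatives were 9 other settings and leaving out each of the 6 mice.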

Additional observations from a re-analysis of the deposited data

How the results depend on the processing

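The count of 5 called members was 4 or 5, from among these 5 genes, with no filter, a mean of at least 5 FPKM, a pseudocount of 0.1, quantile normalization, median-ratio scaling, no variance trend and the epithelium covariate. With array weights it was 24 (21 higher and 3 lower, beside 59% of all genes), and with the smooth muscle covariate 0. Leaving out single mice gave 0 to 19, highest without BBR mouse 3. The count over all genes, 1069 (461 higher), was 608 with no filter, 1737 with quantile normalization, 1698 with median-ratio scaling, 7126 with array weights (4636 higher) and 18 with the smooth muscle covariate, and 89 to 4139 without single mice. The cause of these shifts was not tested.

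Family medians kept their sign in all fits except that of MGST, which was -0.12 with the smooth muscle covariate. Genes without a call changed sign in some fits. With array weights Gsta3, Gstm2 and Sult4a1 were at 0.20, 0.32 and -0.23, Gstm2 then being called in the reversed direction (limma adjusted p = 0.0378), and with the smooth muscle covariate Gsta3, Gstm2, Mgst2, Sult4a1 and Ugt1a6b were at 0.59, 0.35, -0.12, -0.52 and -0.75. Gstz1 was at -0.0059 with median-ratio scaling. Without single mice the fold changes ranged from -0.18 to 0.10 for Gsta4, -0.37 to 0.19 for Gstm2, -0.019 to 0.26 for Gstm4, -0.074 to 0.24 for Gstz1, -0.63 to 0.042 for Ugt1a6a, -0.24 to 0.59 for Ugt1a6b and -0.016 to 0.90 for Ugt2b35. No paired analysis was possible because the labels give the groups no shared replicate numbers. Values under 1 FPKM rest on few reads, and 3 mice per group limit all calls.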
